A study of Mus musculus with 12 samples.

Results

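The genes described here are those whose symbols carry the prefixes of 8 families of splicing factors and RNA-binding proteins: Srsf, Hnrnp, Snrp, Snrnp, U2af, Prpf, Lsm and Rbm, the numbered families with a digit after the prefix. Of 24411 genes listed, 119 matched these names, and the 111 with a mean transcript level of at least 1 TPM (RSEM abundance per length) over the 12 libraries are the members. They comprise 10 Srsf, 20 Hnrnp, 11 Snrp, 7 Snrnp, 3 U2af, 13 Prpf, 13 Lsm and 34 Rbm genes. The level and the names chose the members, so that they are expressed is no finding. The 8 genes left out lay below the limit, with Rbm20 at 0.30 and Rbm11 at 0.16 TPM nearest to it, followed by Srsf12, Rbm24, Snrpn and Rbm46, and with Rbm31y and Rbm46os listed at 0. Just inside the limit were Rbm44 at 1.01 and Rbm3os at 1.15 TPM. All 111 members passed the filter on low counts and were tested.

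The libraries hold poly(A) RNA of the lineage-negative, cKit+ fraction of C57BL/6 bone marrow, which is rich in stem cells and progenitors. Donor marrow (CD45.2) was given to CD45.1 recipients with wild-type support marrow, and the labels do not say whether donor cells were sorted apart. All donors carried Mx1-Cre, an interferon-inducible recombinase that also acts outside blood cells. All recipients received pIpC, 3 doses of 20 mg/kg from 4 weeks after transplantation, and cells were taken 6 months later. Control donors carried Mx1-Cre alone. The inv(3) donors also carried an inversion that brings a GATA2 enhancer to EVI1 (Mecom). Donors of the K700E group carried Sf3b1 K700E, the hotspot mutation of a U2 snRNP subunit, and the combined donors carried both alleles. The mRNA of Sf3b1, at 581.8 to 687.9 CPM in all libraries, does not check the point mutation. Each group had 3 libraries. The labels do not say that these came from separate mice, so p-values measure the spread between libraries.

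Library totals ran from 73074797 to 86555638 expected counts. The progenitor marker Kit was at 420.4 to 468.1 CPM (TMM-scaled counts) in all libraries. The summed level of 8 progenitor markers, Kit among them, was 24143 to 26081 CPM in control and 29494 to 29941 in inv(3) libraries. It was 16169 to 19533 in K700E and 22891 to 25725 in combined libraries. Such a sum follows its most abundant genes, and Kit was a small part of it. In combined against inv(3), where the sum was lower, Cd34, Flt3, Gata2, Cd27 and Sox4 were called higher. Only Mpo was called lower, by -0.34, and Kit and Myb did not pass. The sum therefore does not describe the progenitor markers in general. The inv(3) libraries had Xist at 1794 to 2095 CPM and the Y-linked Ddx3y at 0 to 0.0275 CPM, whereas the other 9 had 98.8 to 132.9 CPM of Ddx3y. Sex and genotype therefore cannot be told apart in any comparison with the inv(3) group. The summed level of 12 macrophage markers was 453.7 to 558.7 CPM in control, 145.2 to 195.7 in inv(3), 584.1 to 785.7 in K700E and 115.5 to 144.0 in combined libraries. Erythroid markers (12 genes) summed to 1008 to 1073 CPM in control, 328.1 to 472.8 in inv(3), 1110 to 1172 in K700E and 363.6 to 417.0 in combined libraries. Markers of mature neutrophils (12 genes) summed to 1440 to 2120, 4736 to 5838, 1213 to 2259 and 2830 to 4045 CPM in the same order. Those of mast cells and basophils (10 genes) gave 533.3 to 550.6, 156.1 to 193.9, 518.9 to 579.2 and 131.2 to 148.8 CPM. The erythroid, macrophage, mast cell and neutrophil marker sums thus moved with the inv(3) allele beside every comparison below that contrasts it. K700E libraries also lay above all control libraries in macrophage and erythroid sums, while neutrophil and mast cell sums overlapped. Combined libraries lay below all inv(3) libraries in macrophage, neutrophil and mast cell sums, while erythroid sums overlapped. By gene, the neutrophil and mast cell markers were split in that comparison. Of the neutrophil markers, Camp was called lower (-1.64) and Cxcr2 higher (0.83). Of the mast cell and basophil markers, Hdc (-1.09) and Il1rl1 (-0.99) were called lower, and Fcer1a (1.59) and Gzmb (0.86) higher. The other tested markers of these cells did not pass. The part of these marker differences in the results was not tested. In such bulk samples, fewer cells of a type and less RNA per cell cannot be told apart.

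The spliceosome removes introns in steps carried out by small nuclear ribonucleoproteins (snRNPs). Sm proteins, named Snrp, form the ring around most spliceosomal RNAs, and LSm proteins form the ring around U6. U1 marks the 5′ splice site, U2 and U2AF the branch point and 3′ splice site, and the Prpf and Snrnp proteins of the U4/U6.U5 tri-snRNP carry the complex to its active form. SR proteins (Srsf) mostly promote the use of nearby splice sites, hnRNPs often repress them, and the Rbm genes share an RNA recognition motif but no single task. In blood, mutations of SF3B1, SRSF2 and U2AF1 recur in myelodysplastic syndromes and leukemia. K700E in SF3B1 is known for the use of cryptic 3′ splice sites.

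The promoters of 6 members on which the results turn are shown first: 3 Sm genes and Lsm6, which were lowest in the combined group, and Prpf40b and Rbm47, which were highest there. They are RefSeq windows on GRCm38.p6 from 250 bases before to 30 bases after a transcription start, written 5′ to 3′ on the gene's strand, the first listed start where a gene has several. Their positions are chr1:133610251-133610530 for Snrpe (minus strand), chr6:86371290-86371569 for Snrpg, chr10:75517792-75518071 for Snrpd3, chr8:78821123-78821402 for Lsm6 (minus), chr15:99294991-99295270 for Prpf40b and chr5:66151925-66152204 for Rbm47 (minus). Capitals mark matches on either strand to 4 motifs. These are CCGGAAG, an ETS-type string, the E-box CACGTG, the CCAAT box, and the GATA-factor type string AGATAA.
Snrpe: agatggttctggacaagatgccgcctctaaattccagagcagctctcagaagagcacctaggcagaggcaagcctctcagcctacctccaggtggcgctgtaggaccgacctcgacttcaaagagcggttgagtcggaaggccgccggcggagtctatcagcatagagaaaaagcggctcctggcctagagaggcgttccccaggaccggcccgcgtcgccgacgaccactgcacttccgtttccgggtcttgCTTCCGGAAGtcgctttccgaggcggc
Snrpg: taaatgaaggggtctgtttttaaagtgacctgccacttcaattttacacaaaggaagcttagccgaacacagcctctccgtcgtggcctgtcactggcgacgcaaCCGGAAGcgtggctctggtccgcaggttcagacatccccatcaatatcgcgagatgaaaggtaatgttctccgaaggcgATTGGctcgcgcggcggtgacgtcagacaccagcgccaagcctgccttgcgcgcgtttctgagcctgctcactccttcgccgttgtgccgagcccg
Snrpd3: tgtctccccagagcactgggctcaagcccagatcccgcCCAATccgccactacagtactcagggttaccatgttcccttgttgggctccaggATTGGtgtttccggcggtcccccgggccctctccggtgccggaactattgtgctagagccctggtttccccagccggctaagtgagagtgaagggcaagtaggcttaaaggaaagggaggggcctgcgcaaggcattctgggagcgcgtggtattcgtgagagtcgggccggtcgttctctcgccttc
Lsm6: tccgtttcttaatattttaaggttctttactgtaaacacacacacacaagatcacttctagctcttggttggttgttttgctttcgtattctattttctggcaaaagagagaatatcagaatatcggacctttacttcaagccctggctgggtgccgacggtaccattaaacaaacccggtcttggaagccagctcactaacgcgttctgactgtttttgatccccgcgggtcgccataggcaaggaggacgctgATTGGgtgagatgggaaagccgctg
Prpf40b: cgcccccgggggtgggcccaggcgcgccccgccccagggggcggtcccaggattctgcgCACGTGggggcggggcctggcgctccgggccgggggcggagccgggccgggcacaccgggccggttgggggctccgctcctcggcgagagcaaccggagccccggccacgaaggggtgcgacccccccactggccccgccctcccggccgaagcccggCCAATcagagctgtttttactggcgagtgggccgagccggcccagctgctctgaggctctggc
Rbm47: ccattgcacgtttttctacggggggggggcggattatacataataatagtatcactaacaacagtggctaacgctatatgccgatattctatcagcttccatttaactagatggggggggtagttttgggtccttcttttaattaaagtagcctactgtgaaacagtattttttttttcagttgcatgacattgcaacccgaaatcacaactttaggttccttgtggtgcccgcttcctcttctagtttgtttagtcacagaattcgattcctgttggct

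In these windows, Snrpe holds overlapping ETS-type matches on both strands, Snrpg an ETS-type match and a CCAAT match, Snrpd3 a pair of CCAAT matches, Lsm6 a CCAAT match and Prpf40b an E-box and a CCAAT match. The Rbm47 window holds no match to the 4. RefSeq windows were found for 93 of the 111 members, 117 windows in all. CCGGAAG was in 27 of these 117 (23.1%) and in 8.4% of all 32851 windows of that length. CACGTG was in 12.8% of the members' windows and 6.8% of all, CCAAT in 45.3% and 36.1%, and AGATAA in 4.3% and 10.7%. The ETS-type string was found in 6 of 13 Srsf windows, 4 of 10 Snrp windows and 1 of 12 Lsm windows. Base composition was not matched between members and all genes, and a match describes letters, not a bound site.

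Most families were abundant, and levels are compared between genes here only as TPM, which is per length. The median TPM was 266 for Snrp, 259 for Hnrnp, 219 for Srsf, 94.2 for Lsm, 71.7 for Snrnp, 63.2 for Prpf and 33.8 for Rbm genes. The highest member was Hnrnpa2b1, an hnRNP that binds nascent RNA, at 934 TPM, followed among family leaders by the Sm gene Snrpg at 688 and the cold-inducible Rbm3 at 625 TPM. The leaders of the other families were Srsf5 (476), U2af1 (374), Snrnp70 of U1 (288), Lsm3 (257) and Prpf8, the U5 scaffold (177 TPM). The lowest of each were Rbm44, Lsm11 of the histone-processing U7 snRNP (7.12), Prpf40b (8.59), Snrnp35 of the minor spliceosome (16.3), Hnrnph3 (35.96), U2af1l4 (45.2), Srsf9 (80.9) and Snrpa1 of U2 (102 TPM). The reads of genes with near-identical processed copies elsewhere in the genome, as many Snrp and Hnrnp genes have, and of Rbm3 and its antisense Rbm3os in unstranded libraries, have an uncertain origin.

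**Figure D1:**
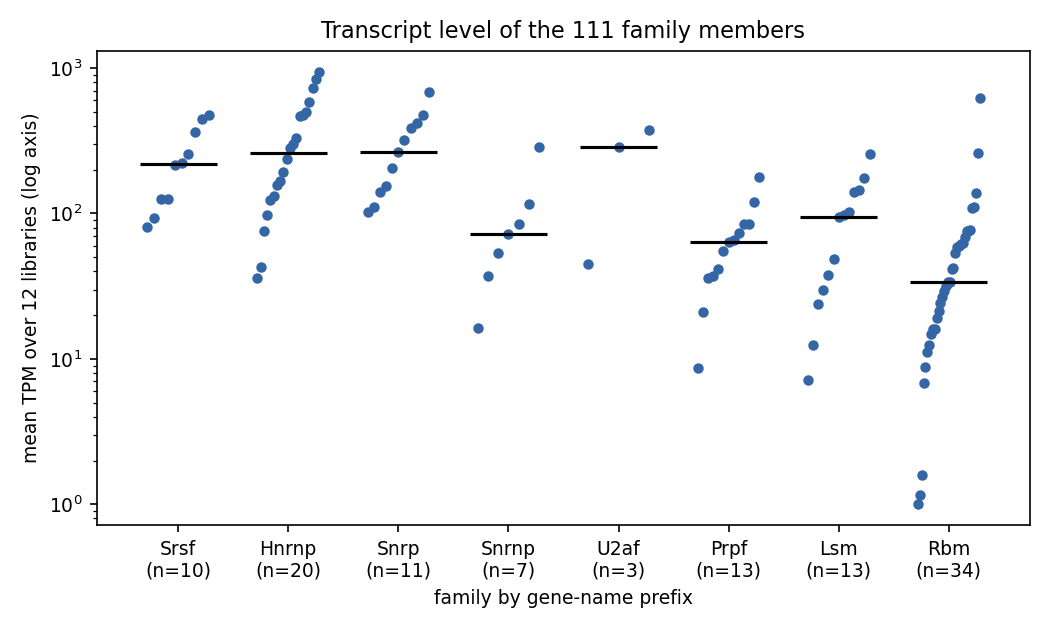
Mean TPM over the 12 libraries (log axis) of each of the 111 members, by family prefix; each point is a gene and the bar is the family median. The Hnrnp, Snrp and Srsf families sit highest, with medians of 259, 266 and 219 TPM, and the Rbm family spreads from 1.01 to 625 TPM.

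Across the 4 genotypes these genes stayed within narrow bounds. The highest group mean exceeded the lowest by a median factor of 1.13 over the 111 members, against 1.29 over the 13755 genes tested. The members were also more abundant, with a median of 85.2 TPM against 17.1 over all genes tested. The factor was not compared at matched level, so the part of abundance in it was not tested. For 102 members (91.9%) the factor was under 1.25, against 45% of all genes tested, and for 2 members it was over 1.5, against 35.5%. One of them was Rbm44, a germ-cell gene that ran from 0.0656 to 5.85 CPM without regard to group and passed no test. The other was Rbm47. The members together summed to 21787 ± 522 CPM in control, 21280 ± 420 in inv(3), 22117 ± 384 in K700E and 20974 ± 229 in combined libraries (SD, n = 3). In TPM the sums were 18463 ± 379, 16759 ± 76.6, 19611 ± 473 and 17220 ± 130, where the 12 neutrophil markers took 10967 ± 2024, 27422 ± 2163, 10634 ± 3157 and 18961 ± 3543 TPM of the fixed total. The TPM sums of the members therefore share a total with genes that moved by more, and differences below are given on counts scaled by TMM.

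With inv(3) alone, 13 of 111 members passed the test against control at an adjusted p under 0.05, 4 higher and 9 lower, which is 11.7% of them where 38.7% of all genes tested passed (18.4% higher and 20.3% lower). The median absolute log2 fold change was 0.08 for members and 0.19 for all genes. Among all genes with a mean of at least 10 TPM, 35.3% passed. With K700E alone, 4 members (3.6%) passed, 3 higher and 1 lower, against 8.84% of all genes (3.94% higher and 4.9% lower). With the mutation added to inv(3), 13 members (11.7%) passed, 6 higher and 7 lower, against 22.6% (13.4% higher and 9.13% lower). With inv(3) added to the mutation, 40 members (36%) passed, 8 higher and 32 lower, against 49.2% (25.7% higher and 23.5% lower). Between combined and control, 30 members (27%) passed, 12 higher and 18 lower, against 41.1% (20.8% higher and 20.4% lower). In all 5 comparisons the members' share was under that of all genes. Over the 5, 55 members passed at least once and 56 never did. Of the 5 X-linked members, Rbm41 passed, in the combined group against control.

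**Figure D2:**
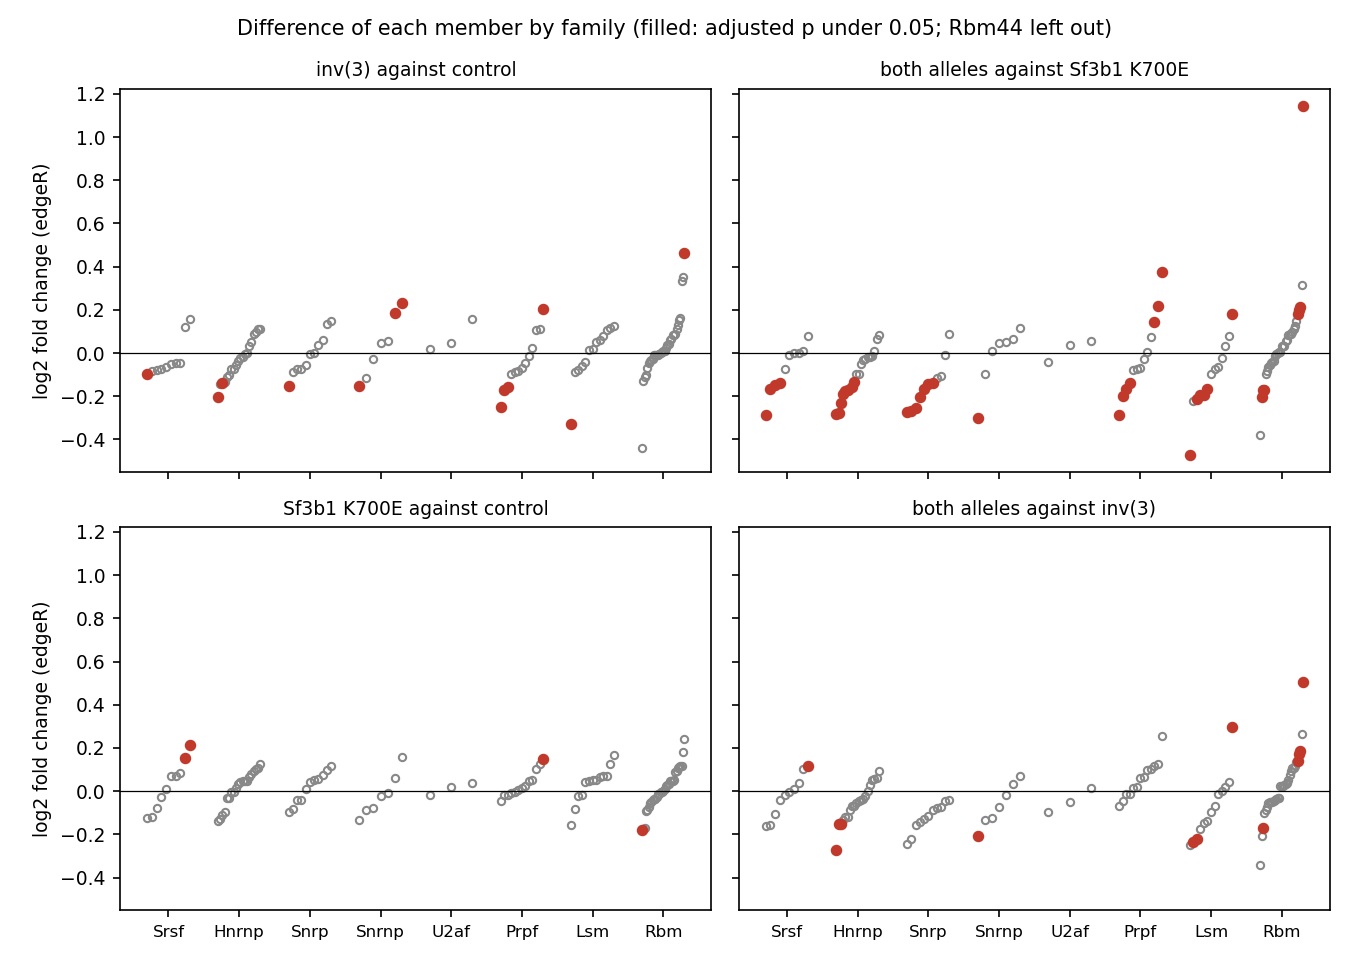
Log2 fold change from edgeR of each member (y axis) by family (x axis) in 4 comparisons; filled points passed at an adjusted p under 0.05, open points did not, and Rbm44 is left out. In the combined group against K700E most filled Snrp, Lsm, Hnrnp and Srsf points lie below 0, and Rbm47 lies at 1.14.

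The summed level of the Sm ring genes was lowest in the combined group. None of the 7 passed in K700E against control or in combined against inv(3), and 1 (Snrpg, adjusted p = 0.040) passed in inv(3) against control, a call lost in 9 of 12 alternatives, 5 of them leaving out 1 library (each control library and inv(3) replicates 1 and 2). In combined against K700E, 5 of 7 were lower, where 23.5% of all genes tested were, and the list's median log2 fold change was -0.17, against 0.025 over all genes tested. In combined against control, 5 of 7 were lower, where 20.4% of all genes were, with a median of -0.15, against 0.002. Of these calls, that of Snrpe was lost without control replicate 1 or combined replicate 1 or 3. That of Snrpg held in all 13 alternatives, and the others were not followed through the alternatives. Snrpb (chr2:130171636-130179382), whose product is the SmB protein, was 209.9, 163.3 and 157.4 CPM in K700E and 181.2, 158.4 and 149.5 in combined libraries, and passed in no comparison.

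Snrpe (chr1:133603871-133610280), the gene of the SmE protein, was 86.6, 78.7 and 78.5 CPM in control, 75.2, 78.1 and 78.1 in inv(3), 85.0, 90.7 and 88.9 in K700E and 71.2, 75.8 and 72.2 in combined libraries. Every combined library was below every control and K700E library. Combined against K700E gave a log2 fold change of -0.27 (SE 0.047, adjusted p = 5.6e-04). Snrpg (chr6:86371540-86378902), the gene of SmG, was 98.7, 99.2 and 102 CPM in K700E and 82.4, 85.5 and 83.8 in combined libraries, with no overlap. Its difference was -0.25 (SE 0.054, adjusted p = 0.0022). Snrpd1 and Snrpd3, the genes of SmD1 and SmD3, differed by -0.27 (SE 0.063, adjusted p = 0.0041) and -0.14 (SE 0.047, adjusted p = 0.030) in that comparison, again without overlap. The summed Sm level was 739.5 ± 1.91 CPM in control, 720.6 ± 27.4 in inv(3), 754.6 ± 22.8 in K700E and 665.5 ± 22.4 in combined libraries. Beside this, the summed level of 15 proliferation genes was 4502 to 4577 CPM in control, 4466 to 4609 in inv(3), 4353 to 4490 in K700E and 3886 to 4171 in combined libraries. Of those 15 genes, 10 were lower in combined against control and 8 in combined against K700E, and their part in the Sm difference was not tested.

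The remaining Snrp genes encode the U1 proteins Snrpa and Snrpc and the U2 proteins Snrpa1 and Snrpb2. Both U2 genes were lower in combined against K700E, Snrpb2 by -0.20 with overlapping libraries and Snrpa1 by -0.14 without overlap, and neither U1 gene passed. Over the whole Snrp family, 7 of 11 members were lower in that comparison (23.5% of all genes tested) and 6 of 11 in combined against control (20.4%). Snrnp70 and the 3 U2af genes passed in no comparison. U2af1, the subunit that reads the 3′ splice site and is mutated in myeloid neoplasia, was 154.8 to 165.7 CPM in control, 160.1 to 168.1 in inv(3), 162.9 to 164.7 in K700E and 153.0 to 167.8 in combined libraries. These ranges all overlap.

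**Figure D3:**
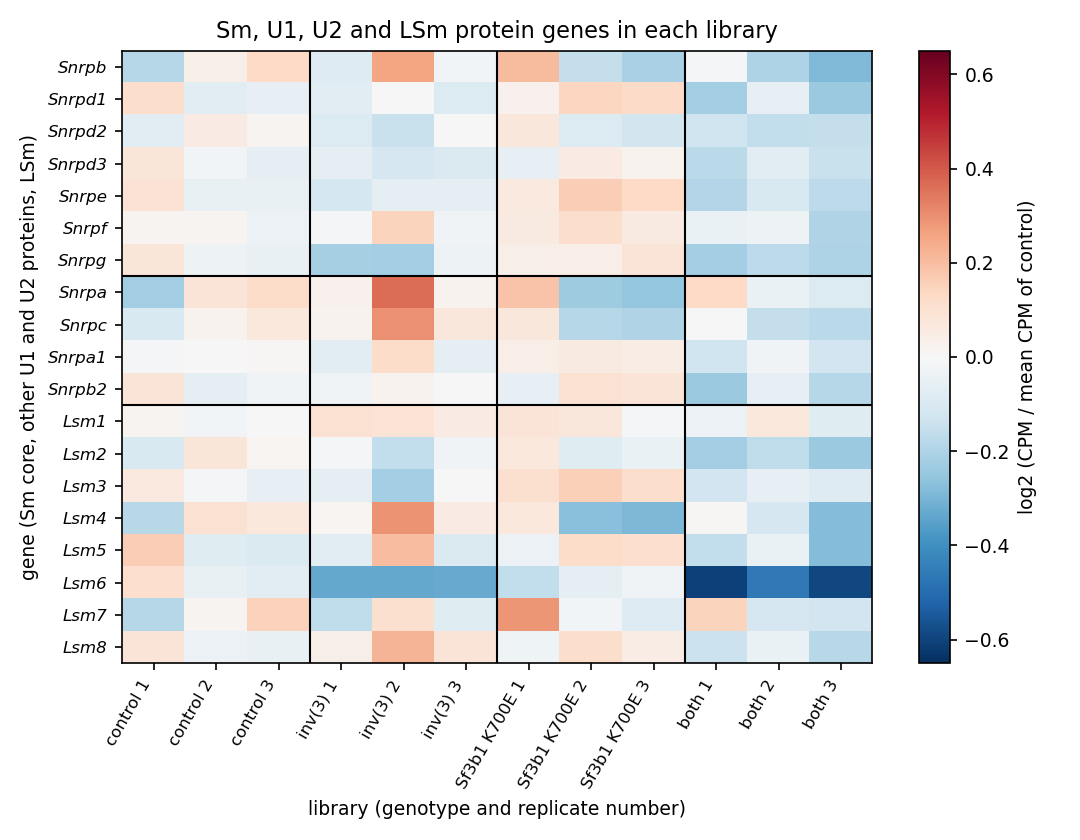
Log2 ratio of CPM to the control mean (colour) for 19 Sm, U1, U2 and LSm genes (rows) in each of the 12 libraries (columns), with lines between groups and between the 7 Sm, 4 other U1 and U2, and 8 LSm genes. The combined libraries are mostly blue in the Sm rows, Lsm6 is blue in all inv(3) and combined libraries, and Snrpb, Snrpa, Snrpc, Lsm4 and Lsm7 vary between libraries of 1 group.

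Lsm6 had the largest fall among the members that passed a test. Its product sits in both LSm rings, the nuclear ring on U6 and the cytoplasmic ring that promotes mRNA decapping. Lsm6 (chr8:78804868-78821152) was 99.9, 89.8 and 88.3 CPM in control, 73.6, 73.6 and 73.8 in inv(3), 82.9, 88.5 and 91.2 in K700E and 60.8, 67.2 and 61.6 in combined libraries. The inv(3) and combined libraries were all below those without the inversion, and the combined were all below the inv(3) libraries. The log2 fold change was -0.33 (SE 0.057, adjusted p = 7.5e-04) for inv(3) against control, -0.47 (SE 0.057, adjusted p = 4.0e-05) for combined against K700E and -0.22 (SE 0.057, adjusted p = 0.017) for combined against inv(3). K700E against control gave -0.08 (adjusted p = 0.39) with overlapping libraries. The call of combined against inv(3) was lost without combined replicate 1 or 3, while its value stayed between -0.27 and -0.20 over all alternatives run.

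The other LSm genes moved less. Of the 8 ring genes, 4 were lower in combined against K700E, where 23.5% of all genes tested were: Lsm6, Lsm3 by -0.21, Lsm2 by -0.19 and Lsm8 by -0.17. Lsm8 marks the nuclear ring and Lsm1 the cytoplasmic one, and Lsm1 passed in no comparison. Lsm11 of the U7 snRNP was lower in the same comparison by -0.20 (adjusted p = 0.0028). Lsm14b, a cytoplasmic mRNP protein of oocytes and processing bodies, went the other way. It was 28.4, 30.6 and 31.0 CPM in control, 32.5, 30.7 and 30.2 in inv(3), 36.1, 33.7 and 31.4 in K700E and 40.9, 35.6 and 38.0 in combined libraries. Combined libraries were above all control and inv(3) libraries and overlapped those of K700E. Its log2 fold change against control was 0.35 (SE 0.067, adjusted p = 0.0015). Lsm14b was also called higher in combined against inv(3), by 0.30 (adjusted p = 0.0097), and against K700E despite the overlap.

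Of 8 tri-snRNP genes, 3 were lower and 1 higher with inv(3) alone against control, where 20.3% of all genes tested were lower and 18.4% higher. Prpf31, a U4/U6 protein whose human gene is mutated in retinitis pigmentosa, was 120.7, 123.4 and 122.8 CPM in control and 108.4, 105.5 and 111.6 in inv(3) libraries. The groups did not overlap, with a log2 fold change of -0.17 (SE 0.041, adjusted p = 0.0060). Prpf8 (-0.16, adjusted p = 0.019) and Snrnp200, the helicase that unwinds U4 from U6 (-0.15, adjusted p = 0.016), were lower as well. Both calls were lost without control replicate 1 or inv(3) replicate 2, and when these groups were fitted alone. Snrnp27 was higher, at 30.2, 33.8 and 31.2 CPM against 27.3, 27.4 and 26.3 in control (0.23, SE 0.065, adjusted p = 0.014), a call lost without inv(3) replicate 2. In combined libraries it was 25.1, 29.7 and 27.7 CPM, lower than in inv(3) by -0.21 (adjusted p = 0.040), a call lost without inv(3) replicate 2 or 3 or combined replicate 1 or 3, and with these groups fitted alone. Prpf4, another U4/U6 protein, was 61.8, 61.1 and 62.0 CPM in control and 67.5, 69.9 and 67.5 in K700E libraries, higher by 0.15 (SE 0.034, adjusted p = 0.022), a call lost in 5 of 13 alternatives, among them without control replicate 1 or 2 or K700E replicate 2.

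Prpf19 (chr19:10895231-10909559), the ubiquitin ligase at the centre of the Prp19 complex, was 278.8, 276.2 and 275.6 CPM in control and 233.7, 220.7 and 243.5 in inv(3) libraries. With the mutation the values were 289.9, 276.5 and 277.9 without the inversion and 227.8, 232.7 and 231.3 with it. The libraries with inv(3) were all below those without it. The log2 fold change of the inversion was -0.25 (SE 0.041, adjusted p = 5.3e-04) without and -0.29 (SE 0.041, adjusted p = 1.4e-04) with the mutation. Prpf18, a factor of the second step of splicing, was higher with inv(3) on both backgrounds, by 0.21 (adjusted p = 0.0044) and 0.15 (adjusted p = 0.021).

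Prpf40b and Prpf39 are related to yeast U1 proteins that help find the 5′ splice site. Prpf40b (chr15:99295076-99317018) was 13.1, 13.8 and 14.6 CPM in control, 13.6, 16.5 and 14.6 in inv(3), 14.9, 12.6 and 13.7 in K700E and 17.5, 17.1 and 18.98 in combined libraries. Every combined library was above all others. The log2 fold change was 0.37 (SE 0.088, adjusted p = 0.0060) against control and 0.38 (SE 0.088, adjusted p = 0.0040) against K700E, while 0.26 against inv(3) did not pass (adjusted p = 0.056). Prpf39 was higher in the same 2 comparisons by 0.22, with adjusted p of 0.024 and 0.023. Both calls were lost without combined replicate 1 or 3, the first also without control replicate 2 or 3 and the other without K700E replicate 1.

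The minor spliceosome, which removes the rare U12-type introns, has 3 protein genes among the members. Snrnp48 was 33.6, 31.6 and 31.0 CPM in control and 35.8, 38.4 and 35.3 in inv(3) libraries, without overlap (0.19, SE 0.055, adjusted p = 0.018), a call lost without control replicate 2 or 3 or inv(3) replicate 2. It was also higher in combined against control, by 0.22 (adjusted p = 0.0069). Snrnp35 was lower in combined against K700E, at 8.07, 7.41 and 7.95 against 10.3, 9.42 and 9.14 CPM (-0.30, SE 0.074, adjusted p = 0.0053). Snrnp25 passed in no comparison.

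**Figure D4:**
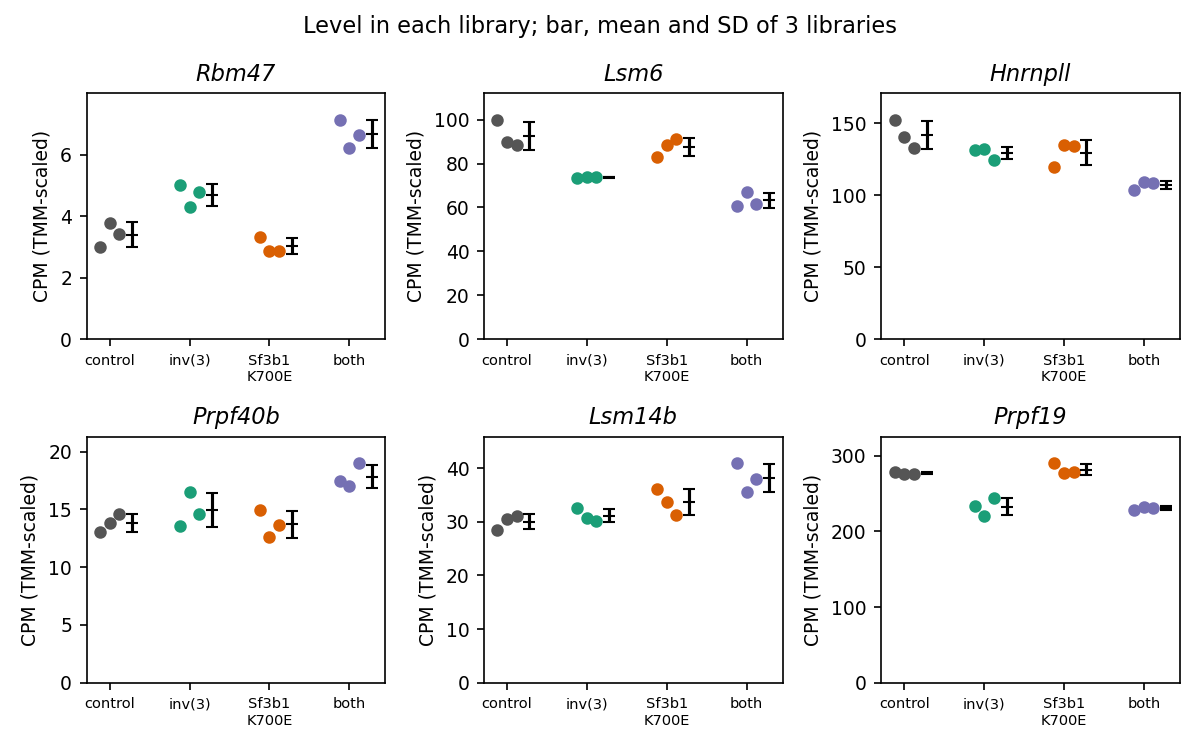
Level in TMM-scaled CPM (y axis, from 0) of 6 members in each of the 12 libraries (points) by genotype (x axis), with the mean and SD of 3 libraries beside them. Rbm47 is highest in combined libraries at 6.24 to 7.14 CPM, Lsm6 is lowest there at 60.8 to 67.2 CPM, and Prpf19 is lower in both groups with inv(3).

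Of the 4 members called with K700E alone, 2 were SR protein genes. Srsf10, which represses splicing when dephosphorylated, was 209.7, 197.9 and 206.2 CPM in control and 224.8, 247.3 and 240.1 in K700E libraries, without overlap. In combined libraries it was 194.4, 198.3 and 191.7 CPM. The log2 fold change was 0.21 (SE 0.045, adjusted p = 0.017) for the mutation against control and -0.29 (SE 0.045, adjusted p = 3.0e-04) for combined against K700E. Srsf7, also an mRNA export adaptor, was 335.5, 335.8 and 341.4 CPM in control, 326.4, 310.6 and 309.4 in inv(3), 372.3, 385.1 and 367.2 in K700E and 340.5, 334.3 and 341.6 in combined libraries. It was higher with the mutation alone by 0.15 (adjusted p = 0.026) and lower in combined against K700E by -0.15 (adjusted p = 0.0053). Srsf1 (-0.16) and Srsf3 (-0.14) were also lower in combined against K700E, 4 of 10 SR genes in all, where 23.5% of all genes tested were lower. None of the 10 passed in combined against control. The 4 members called with K700E alone were Srsf10, Srsf7, Prpf4 and Rbm33, and no call remained when either control replicate 2 or K700E replicate 2 was left out, and 1 remained without control replicate 1.

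Among the hnRNPs, Hnrnpll had the largest fall. It is the regulator of alternative splicing of the CD45 gene (Ptprc) in lymphocytes. Hnrnpll (chr17:80029487-80062268) was 152.3, 140.4 and 132.7 CPM in control, 131.2, 131.9 and 124.4 in inv(3), 119.7, 134.6 and 134.4 in K700E and 103.8, 109.1 and 108.1 in combined libraries. Every combined library was below all others. Relative to control the log2 fold change was -0.41 (SE 0.060, adjusted p = 2.3e-04), and it was -0.28 (SE 0.060, adjusted p = 0.0025) against K700E and -0.27 (SE 0.060, adjusted p = 0.0086) against inv(3). Neither allele alone passed against control (inv(3) -0.13, adjusted p = 0.096, and K700E -0.13, adjusted p = 0.20). Its interaction term, -0.14, did not pass (adjusted p = 0.45).

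In combined against K700E, 8 of 20 hnRNP genes were lower and 0 higher, where 23.5% of all genes tested were lower and 25.7% higher. Besides Hnrnpll they included Hnrnpc, which binds uridine runs and competes with U2AF, at 458.9, 492.7 and 495.0 CPM against 375.0, 421.4 and 394.6 in combined libraries (-0.28, SE 0.052, adjusted p = 8.6e-04). Hnrnpa2b1 was lower by -0.23 (SE 0.045, adjusted p = 0.0013). Both were also lower against control, by -0.15 and -0.13, and the Hnrnpc call there was lost in 5 of 13 alternatives, among them without control replicate 1 or combined replicate 1 or 3. With inv(3) alone, Hnrnpdl (-0.20, adjusted p = 0.029) and Hnrnpr (-0.14, adjusted p = 0.022) were lower. The Hnrnpdl call was lost in 5 of 12 alternatives (replicate block, these groups alone, and without control replicate 1 or inv(3) replicate 1 or 2), and the Hnrnpr call without control replicate 1 or 3 or inv(3) replicate 1. In combined against inv(3), Hnrnpul1 and Hnrnpul2, which take part in the DNA damage response, were lower by -0.15 each, and the Hnrnpul1 call was lost in 5 of 12 alternatives, among them without inv(3) replicate 1 or 3 or combined replicate 1 or 3. Hnrnpk, mutated or lost in some myeloid neoplasms, passed in no comparison.

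Rbm47 had the largest rise among the members that passed a test. Its product is a cofactor of APOBEC1, the enzyme that edits C to U in mRNA. Rbm47 (chr5:66016549-66151954) was 2.99, 3.78 and 3.44 CPM in control, 5.02, 4.29 and 4.78 in inv(3), 3.33, 2.87 and 2.88 in K700E and 7.14, 6.24 and 6.65 in combined libraries. The inv(3) libraries were all above control, and the combined libraries were above all others. It was 1.38-fold higher with the inversion where the mutation was absent (log2 0.47, SE 0.12, adjusted p = 0.0093) and 2.21-fold higher where it was present (log2 1.14, SE 0.12, adjusted p = 1.6e-05). The mutation gave log2 -0.17 without the inversion (adjusted p = 0.41) and 0.51 with it (adjusted p = 0.011, and 0.052 without combined replicate 1). The interaction, 0.68 (SE 0.17), did not pass (adjusted p = 0.088).

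Of the 34 Rbm genes, 7 were higher and 1 lower in combined against control, where 20.8% of all genes tested were higher and 20.4% lower, so the share of Rbm genes that rose was near that of all genes. Rbm5, which controls the splicing of apoptosis genes, was 175.8, 174.8 and 167.4 CPM in control, 201.3, 176.8 and 188.8 in inv(3), 175.4, 185.9 and 189.6 in K700E and 215.8, 200.7 and 223.1 in combined libraries. Combined libraries lay above all control and K700E libraries and overlapped inv(3). Against control the log2 fold change was 0.30 (SE 0.056, adjusted p = 0.0011). Rbm39, a U2AF-related factor and the target of aryl sulfonamide degraders, was higher by 0.22 (adjusted p = 0.0055). Rbm26, Rbm6, Rbm48 and Rbm41 rose by 0.13 to 0.20. Rbm28, a nucleolar protein of ribosome assembly, was lower by -0.21 (adjusted p = 0.0047). Rbm8a, the Y14 subunit of the exon junction complex, was lower in combined against inv(3) by -0.17 (adjusted p = 0.022), a call lost without inv(3) replicate 2 or combined replicate 1 or 3, and with these groups fitted alone. Rbm33 was 186.6, 175.5 and 174.3 CPM in control, 159.9, 151.3 and 162.5 in K700E and 186.2, 174.5 and 183.5 in combined libraries. It was lower with the mutation alone (-0.18, adjusted p = 0.032), a call lost in 7 of 13 alternatives, among them without any 1 control library or K700E replicate 2 or 3. It was higher in combined against K700E (0.20, adjusted p = 0.0031).

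The effect of the inversion can be read on 2 backgrounds whose libraries are separate. Of the 13 members called for inv(3) against control, 8 (61.5%) were called in the same direction for combined against K700E, which is 20.0% of the 40 called there, and 0 in the opposite direction. The sign agreed for 85 of 111 members. Across the 111 genes Spearman's rho was 0.70 and Pearson's r was 0.84, and r was 0.69 without Rbm44 and Rbm47. Over the 13755 genes tested rho was 0.79 and r was 0.82. Genes share libraries and are not independent, so these values are descriptions. For the mutation, on control and on inv(3) backgrounds, 0 of the 4 and 13 called members were shared, the sign agreed for 60 of 111, and rho was 0.39, against 0.47 over all genes. These comparisons with inv(3) libraries also differ in sex.

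**Figure D5:**
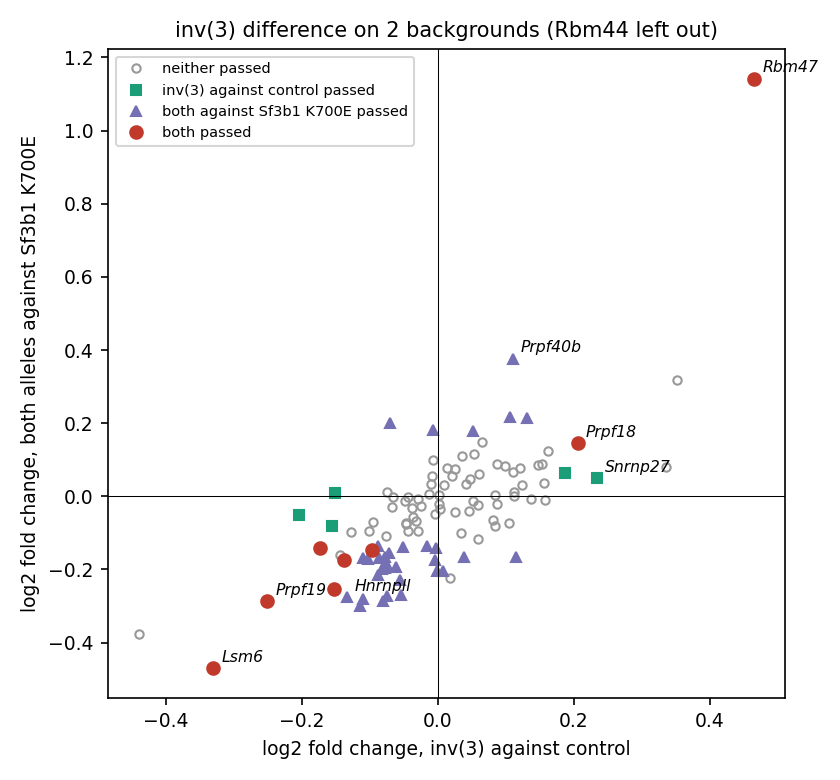
Log2 fold change of inv(3) against control (x axis) and of combined against K700E (y axis) for 110 members, Rbm44 left out; marker shape and colour show which comparison passed at an adjusted p under 0.05. The 8 members that passed in both lie in the lower left or upper right corner, with Rbm47 and Lsm6 at the ends.

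The interaction asks whether the inversion acts differently with and without the mutation. No member passed in edgeR, where 0.836% of all genes did (0.4% above and 0.436% below 0). At an unadjusted p under 0.05 there were 15 of 111 members and 2252 of 13755 genes. DESeq2 called 633 genes, 3 of them members: Rbm47 (0.66), Rbm33 (0.25) and Srsf10 (-0.22). The 11 Snrp genes had interactions from -0.21 to -0.03 with a median of -0.14, against 0.02 over all genes, and 0 passed. These genes share libraries and are not independent. The interaction includes the inv(3) libraries, so sex and genotype cannot be told apart in it.

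Genes of the families that are mutated in myeloid neoplasia formed a list of 6: Srsf2, U2af1, U2af2, Prpf8, Prpf40b and Hnrnpk. Prpf8 was called once and Prpf40b in the 2 comparisons above, and the other 4 in none. Srsf2 was 471.8, 485.9 and 480.3 CPM in control, 428.0, 517.9 and 445.9 in inv(3), 446.6, 459.0 and 458.3 in K700E and 421.6, 445.6 and 426.7 in combined libraries, where the combined libraries lay below control without passing the test (adjusted p = 0.061).

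Effective length, the abundance-weighted mean length of a gene's transcripts as RSEM gives it, moves when isoform use moves. It also differed between libraries for genes with 1 listed transcript. Their median was 2489 bases in inv(3) replicate 2 and 2496 to 2503 in the other libraries. Of the 111 members, 39 had more than 1 listed transcript and at least 50 expected counts in every library. None of the 39 passed in any of 6 contrasts by limma, where 0.263% of all 3422 genes passed for inv(3) against control, 0.0292% for K700E against control and for combined against inv(3), 0.526% for combined against K700E, 0.468% for combined against control and 0% for the interaction. At an unadjusted p under 0.05 there were 0%, 2.56%, 10.3%, 12.8%, 5.13% and 5.13% of the 39 members in that order, against 7.83%, 4.09%, 7.04%, 7.36%, 5.7% and 4.24% of all genes. In each pair of groups at least 36 of 39 members differed by under 1%. The largest difference was in Snrnp70, 4.80% longer in combined against inv(3) (adjusted p = 0.45), at 2242, 2127 and 2288 bases in inv(3) and 2305, 2277 and 2394 in combined libraries, which overlap.

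Srsf3 had the smallest p. It is an SR protein known to regulate its own mRNA through an exon that carries a stop codon, and the files list 2 transcripts for it. Its effective length was 2479, 2483 and 2480 bases in control, 2487, 2465 and 2482 in inv(3), 2476.5, 2469 and 2471.5 in K700E and 2496, 2487 and 2498 in combined libraries. All combined libraries were above all K700E libraries, by 0.86% (limma, log2 0.012, SE 0.0031, adjusted p = 0.18). With the uncorrected transcript length in place of effective length the adjusted p was 0.017, and with libraries centred on genes of 1 transcript it was 0.016. A cryptic splice site absent from the listed transcripts does not move this measure, and for genes with 1 listed transcript it cannot follow isoform use.

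Other spliceosome genes outside the named families were read from lists. Over all genes tested, 49.2% passed in combined against K700E (23.5% lower and 25.7% higher), 38.7% in inv(3) against control and 8.84% in K700E against control. Of 12 SF3A and SF3B genes, 5 (41.7%) were lower and 0 higher in combined against K700E, and 0 passed in K700E against control. Phf5a, which contacts SF3B1 at the branch point pocket, was lower in combined against K700E by -0.30 (adjusted p = 1.6e-04). Of 18 genes of the SMN complex and snRNP assembly, which load Sm proteins onto RNA, 7 were lower and 1 higher with inv(3) alone, 0 lower and 4 higher with K700E alone, and 9 lower and 0 higher in combined against K700E. These are 44.4%, 22.2% and 50% of the 18. Prmt5, the methyltransferase of Sm proteins, was 122.4, 125.6 and 125.1 CPM in control, 97.0, 93.2 and 101.2 in inv(3), 136.1, 133.3 and 130.4 in K700E and 102.1, 104.8 and 104.5 in combined libraries. The inv(3) and combined libraries lay below the others, with -0.36 on both backgrounds (adjusted p = 3.6e-05 and 1.9e-05). Gemin6, an SMN complex subunit, was lower in combined against K700E by -0.60 (adjusted p = 2.0e-05).

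Of 8 tested SR protein kinases and phosphatases, 4 were higher and 1 lower in combined against K700E (62.5%, against 49.2% of all genes), with Clk3, a kinase of SR proteins, at 0.25 and the phosphatase Ppm1g at -0.24. Of 30 tested splicing regulators of other families, 9 were lower and 5 higher in that comparison, 46.7% in all, near the 49.2% of all genes. Rbfox2, which binds GCAUG elements, was 1.56, 1.45 and 1.63 CPM in control, 0.184, 0.0550 and 0.0493 in inv(3), 2.87, 3.43 and 2.56 in K700E and 0.155, 0.299 and 0.185 in combined libraries. The inversion's log2 fold change was -3.99 and -3.79 on the 2 backgrounds (adjusted p = 1.2e-05 and 4.1e-06), from 22 and 50 summed counts in the groups that carry it. Msi2, a regulator of stem cell mRNA translation, was lower with inv(3) by -0.40 and higher with K700E by 0.45 (adjusted p = 8.1e-05 and 0.0031). Of 9 spliceosomal helicases 0 passed in combined against K700E, and of 21 genes of the Prp19, Bact and C complexes 5 were lower and 1 higher (28.6%).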

How the data were processed

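Poly(A) RNA from 12 libraries was prepared with an unstranded TruSeq protocol, per the labels' protocols. The authors deposited a gene table per library with the columns of RSEM, per the file headers. It holds expected counts, not normalized, as the authors deposited them. TPM values are normalized by length and library as the authors deposited them, and so are FPKM values, which were not used. Length and effective length are in bases. Tools named in the submitters' notes are bcl2fastq and the build mm10, and the aligner is not given in these sources.

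Members are genes matching the 8 prefixes with a mean of at least 1 TPM. Members, lists, tests and alternatives were chosen with earlier results of these data known. Expected counts were rounded and filtered by filterByExpr, leaving 13755 of 24411 genes. The fit, over 4 groups, used the robust quasi-likelihood method of edgeR 4.0.16 in R 4.3.3 with TMM scaling. P-values are two-sided, adjusted by Benjamini-Hochberg over all tested genes, and called under 0.05. CPM values are TMM-scaled. Effective length was tested as log2 with limma 3.58.1 (trend, robust). Code was tested on simulated data. Gene positions and promoters are RefSeq, GRCm38.p6, matched by symbol. Named genes are, per comparison, the 6 largest rises and falls among called members, the 2 smallest p per family, the highest and lowest TPM per family, the 10 smallest length p, the neoplasia list, the 2 nearest the TPM limit on each side, and up to 2 called genes per pathway list; others named to complete a count were chosen after their values were seen. Alternatives were RLE scaling, no filter, DESeq2 1.42.0, compared groups alone, a replicate block, an effective-length offset, at least 10 TPM and each library left out; the 9 libraries with Y-linked RNA were added after seeing the data.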

Additional observations from a re-analysis of the deposited data

Results flagged for a closer look

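Srrm2 (chr17:23790527-23824741), a large SR-related protein of nuclear speckles and the later spliceosome, passed the interaction test. The gene was picked by that test from the lists of other spliceosome and splicing genes, where no other gene passed it. It was 995.3, 1003 and 1020 CPM in control, 1131, 1029 and 1104 in inv(3), 949.9, 883.5 and 962.0 in K700E and 1332, 1241 and 1375 in combined libraries. The interaction was 0.39 on the log2 scale (SE 0.071, adjusted p = 0.032 by edgeR), where 0.836% of all genes tested passed. This contrast includes the inv(3) libraries, so sex and genotype cannot be told apart in it. The adjusted p was 0.017 to 0.11 when each library was left out, and the call was lost in 10 of 17 alternatives, all of them leaving out 1 library.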

How the results depend on the processing

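Of 64 named calls, 34 passed under every alternative, 30 were lost under at least 1 and 0 reversed. RLE scaling and no low-count filter left each count of called members within 1.5 times. With the replicate number as a block, 1 member was called in K700E against control and 8 in combined against inv(3); it moved no other count by over 1.5 times. The numbers do not pair the libraries: deviations of same-numbered libraries correlated above 0.1 in 3 of 18 pairs (-0.38 to 0.27), and 2 of 12 libraries correlated best with their own number. DESeq2 called 7 members in K700E against control and 3 in the interaction. The compared groups alone gave 8 in inv(3) against control, 2 in K700E against control and 7 in combined against inv(3). The 9 libraries with Y-linked RNA gave 4, 40 and 25 for K700E against control, combined against K700E and combined against control. The cause of these changes was not tested.

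Leaving out 1 library gave 8 to 15 calls in inv(3) against control (8 without inv(3) replicate 2), 0 to 5 in K700E against control (0 without control replicate 2 or K700E replicate 2, 1 without control replicate 1), 2 to 16 in combined against inv(3), 27 to 40 in combined against K700E, 14 to 30 in combined against control and 0 to 1 in the interaction (1 without combined replicate 2). Combined against inv(3) had 2 without combined replicate 1, 3 without combined replicate 3, and 7 without inv(3) replicate 2 or 3. Combined against control had 14 without combined replicate 3 and 18 without control replicate 3 or combined replicate 1. For length, no library left out gave a call; in combined against K700E the length column gave 2 (Srsf3 and Srsf1) and centring 1 (Srsf3). Without combined replicate 2 the Hnrnpm length difference in that comparison turned to 2.5e-04 on the log2 scale, and it was -0.0016 without combined replicate 3. Fewer libraries leave fewer degrees of freedom, and low-expressed members such as Rbm44 and Rbm3os are limited by depth.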
